A study of Homo sapiens with 6 samples.

Results

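Expression of 29 target genes of the tumour suppressor p53 was followed in the cell line LX-2, derived from human hepatic stellate cells, after stimulation with transforming growth factor beta 1 (TGF-β1). The genes were taken by symbol as widely used p53 targets, and all 29 were found among the 27830 genes of the deposited table. Of these, 28 passed the filter on low counts that left 14463 genes for testing. RNA was sequenced from 3 samples given TGF-β1 at 10 ng/ml for 24 h and from 3 samples labelled control. All cells were grown in DMEM with 10% fetal bovine serum. According to the labels, TGF-β1 was given without serum, but they do not say in which medium the controls were kept for those 24 h, so TGF-β1 and a change of serum cannot be told apart. LX-2 is a single line, and neither the p53 status of these cells, nor p53 protein, nor its activity was examined here. Whether the 3 samples of each group came from different cultures is not recorded, and the p-values therefore reflect only sample-to-sample spread, possibly technical.

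p53 is a transcription factor that is held at a low level by the ubiquitin ligase MDM2 and becomes stable after DNA damage or other stress. It then switches on genes that stop the cell cycle (CDKN1A), repair DNA (DDB2, XPC), trigger cell death (BAX, BBC3, FAS) and limit its own activity (MDM2, PPM1D). GDF15, a secreted stress cytokine and distant member of the TGF-β superfamily, is among its targets and is also induced by the stress factor ATF4. In epithelial cells TGF-β itself is known to raise CDKN1A through SMAD proteins. In the liver, hepatic stellate cells activated by TGF-β1 are the main source of scar matrix.

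Promoter windows of RefSeq (GRCh38.p14), each covering 250 bases before and 50 bases from a transcript start, were found for 24 of the 29 genes. The p53 decamer, the 10-base unit of which a p53 response element holds a pair, was searched for by its usual consensus on both strands. An exact match stood in a window of 6 of the 24 genes (25%), against 8.06% of all 27305 genes with a window. These stretches show which members carry such letters next to a start, with the decamer in capitals.
PLK2 (chr5:58460194-58460233, minus strand): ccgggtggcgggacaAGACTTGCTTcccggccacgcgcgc
SESN1 (chr6:109009013-109009052, minus strand): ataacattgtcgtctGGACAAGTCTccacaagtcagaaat
FAS (chr10:88991294-88991333, plus strand): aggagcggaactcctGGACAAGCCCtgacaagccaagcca
DDB2 (chr11:47214964-47215014, plus strand): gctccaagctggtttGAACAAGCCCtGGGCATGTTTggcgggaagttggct
AEN (chr15:88621291-88621330, plus strand): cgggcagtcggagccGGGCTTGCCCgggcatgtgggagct
FDXR (chr17:74872981-74873020, minus strand): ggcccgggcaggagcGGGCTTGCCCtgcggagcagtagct
DDB2 was the only one of the 24 with a pair of decamers 0 to 13 bases apart, which 0.0366% of all genes with a window had.

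The window of GDF15, the gene with the largest difference among the members, is shown whole, with the SMAD-type letters CAGAC in capitals.
GDF15 (chr19:18385908-18386207, plus strand): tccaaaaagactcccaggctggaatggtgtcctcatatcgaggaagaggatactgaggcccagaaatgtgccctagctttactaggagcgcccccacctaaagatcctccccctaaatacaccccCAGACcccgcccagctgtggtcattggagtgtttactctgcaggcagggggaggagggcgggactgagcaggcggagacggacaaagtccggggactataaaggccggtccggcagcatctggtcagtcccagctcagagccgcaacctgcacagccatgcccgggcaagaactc
It held no exact p53 decamer and no ATF4-type letters (TGATGNAAN). Near matches to the decamer, such as agccatgccc close to the end of this window, were not counted. CAGAC occurred on either strand in windows of 13 of the 24 members (54.2%), against 50% of all genes, and TGATGNAAN in 1 of the 24 members, PLK3 (4.17%), against 4.45%. The longer SMAD letters GTCTAGAC were in none of the 24, against 0.256% of all genes. A match to these letters is not evidence of binding. A window without an exact match says nothing of sites outside it, or of inexact sites inside it.

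Library totals ran from 13866957 to 17694675 counts, so that 3 counts, taken as the detection floor, correspond to 0.175 to 0.221 CPM (counts per 1000000 counts of the TMM-scaled library), which covers counting error only. Of a panel of 8 known TGF-β1 targets, edgeR called 4 higher in TGF-β1 samples and 0 lower, where it called 0.187% of all tested genes higher. FN1, encoding fibronectin, had 3558 ± 184 CPM in TGF-β1 samples and 985 ± 68.9 CPM in controls (SD, n = 3 each), with an edgeR adjusted p of 5.1e-05. TGFBI, a matrix protein, had 3190 ± 305 CPM in TGF-β1 samples and 952 ± 51.6 CPM in controls (edgeR adjusted p = 7.7e-05), and TAGLN, an actin-binding protein, had 304 ± 53.2 and 97.7 ± 4.13 CPM (0.000682). ACTA2, α-smooth muscle actin, had 4.77 ± 1.35 CPM in TGF-β1 samples and 5.0 ± 0.338 CPM in controls (edgeR adjusted p = 0.898). Genes on the opposite strand, among them FAS, cover 30.1% of its exon bases. Its counts are thus uncertain with a library kit that does not mark strand. Stellate and mesenchymal markers summed to 3510 to 3986 CPM in TGF-β1 samples and 3194 to 3433 CPM in controls, most of it COL1A1 and VIM. Of these 13 markers 11 were tested, and edgeR called 2 higher (COL3A1 and COL5A1) and 0 lower, where it called 0.187% of all genes higher. PDGFRB had 47.3 ± 5.37 CPM in TGF-β1 samples and 47.7 ± 4.26 CPM in controls, and THY1 had 80 ± 12.2 and 88.8 ± 8.65 CPM. GFAP had 23 to 44 counts, RELN 14 to 45, HGF 7 to 24 and PDGFRA 6 to 12. The stellate marker LRAT had 2 counts in 1 TGF-β1 sample and 0 in the other 5 samples, and DES had 1 to 5 counts. Leukocyte markers summed to 25.2 to 29.3 CPM and 28.7 to 37.1 CPM in the same order. Of the 3 tested leukocyte markers, CD14 (10.2 ± 0.724 CPM in TGF-β1 samples, 15.8 ± 2.64 CPM in controls; log2 difference -0.63, edgeR adjusted p = 0.161) and ITGAX (9.65 ± 1.07 and 13 ± 1.15 CPM; -0.43, 0.273) had groups that did not overlap, and CSF1R lay the other way (0.43, 0.362). PTPRC, the marker of all leukocytes, had 6 to 16 counts in TGF-β1 samples and 3 to 9 in controls. Hepatocyte markers summed to 25.4 to 30.9 CPM and 23.2 to 31.5 CPM, nearly all of it SERPINA1. Endothelial markers summed to 6.47 to 7.71 CPM in TGF-β1 samples and 5.91 to 7.14 CPM in controls, and epithelial markers to 71.2 to 81.3 and 73.9 to 86.8 CPM, nearly all of it SOX9, while EPCAM had 0 to 1 and KRT19 0 to 2 counts. The part of these cell types in any difference was not tested.

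Libraries also differed in how levels followed the GC content of transcripts. Over 234 tested genes with a GC content of the longest transcript up to 35%, the median log2 deviation from the gene mean in TGF-β1 replicates 1, 2 and 3 was 0.679, 0.242 and -0.184, and in the controls of the same numbers -0.0848, -0.415 and -0.153. Since this trend is partly aligned with the groups, log2 differences of members are given both on scaled libraries and, where it matters, with the trend removed from each library. The part of the trend in the differences between groups was not tested beyond this.

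In LX-2 cells the members covered a wide range of levels. CDKN1A, encoding the cyclin-dependent kinase inhibitor p21, was the most abundant per transcript length, at 74.5 FPKM in TGF-β1 samples and 85 FPKM in controls (means of 3; FPKM, as deposited by the authors, relates fragments to transcript length and library size). BAX, a pore-forming inducer of apoptosis, had 61.3 and 61.1 FPKM, and TNFRSF10B, the death receptor DR5, had 57.8 and 62.7 FPKM, in TGF-β1 samples and controls. In both groups 10 members had a mean of at least 10 FPKM. Means under 2 FPKM were found for 9 members in TGF-β1 samples and 8 in controls. GDF15 was the 21st of the 29 members by level in TGF-β1 samples and the 16th in controls. SPATA18, which encodes a mitochondrial quality control protein also called Mieap, was the lowest at 0.106 and 0.124 FPKM. It had 18, 3 and 4 counts in TGF-β1 samples and 6, 9 and 15 counts in controls, and was the member that was not tested.

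**Figure D1:**
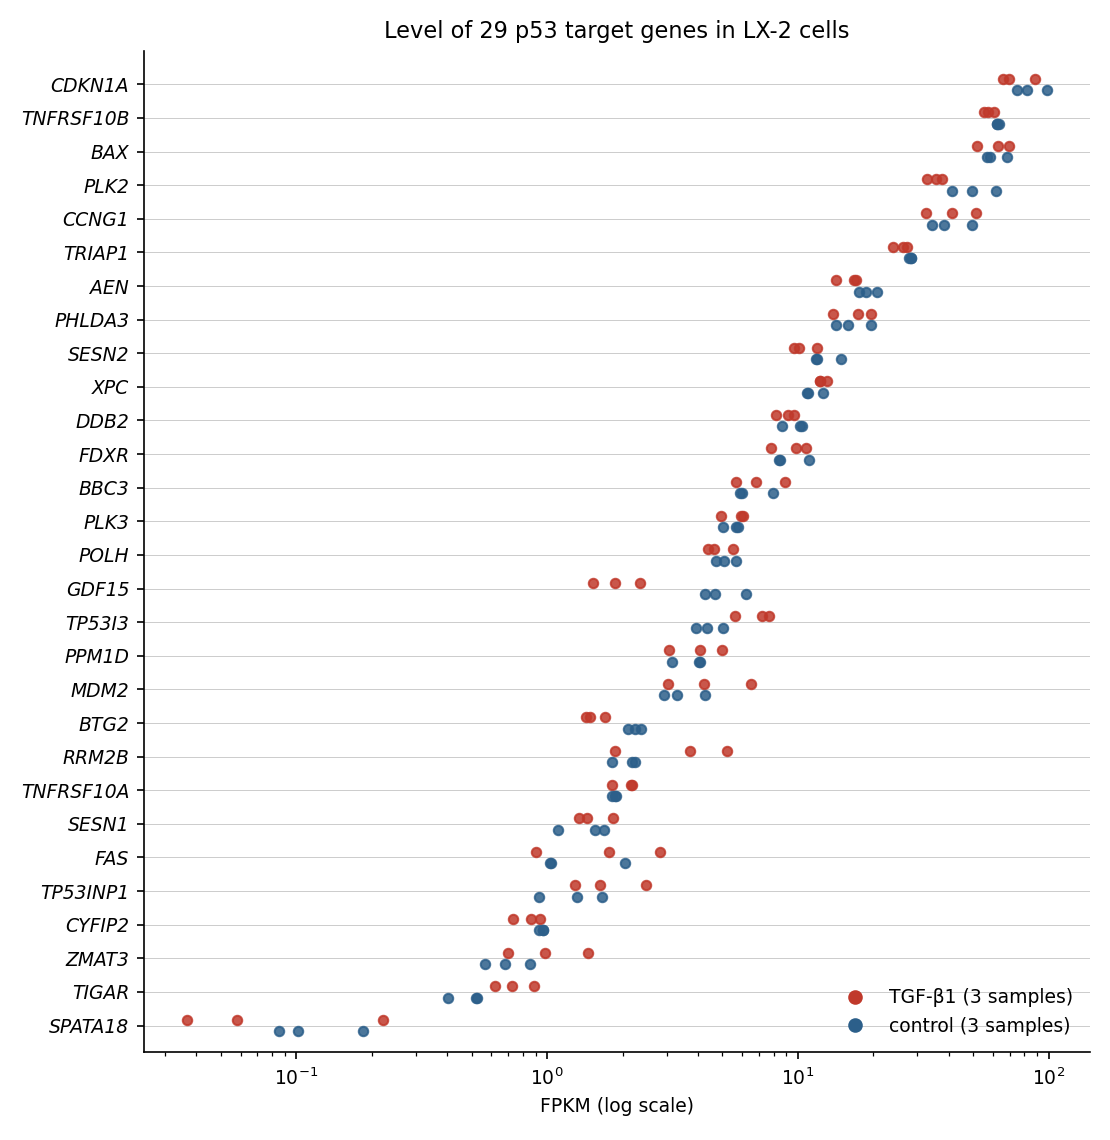
Level of the 29 p53 target genes as deposited FPKM on a log axis, with 1 point per sample (red, TGF-β1; blue, control; 3 samples each) and genes ordered by their control mean. Most genes have overlapping groups, while the 3 red points of GDF15 lie below its 3 blue points.

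Among the members, GDF15 alone passed the test. In order of replicate number, it had 3.16, 3.80 and 5.0 CPM in TGF-β1 samples, against 8.91, 13.4 and 9.75 CPM in controls. The highest TGF-β1 sample was below the lowest control, and control replicate 2 was the highest of the 6. Raw counts were 52, 64 and 68 in TGF-β1 samples and 126, 230 and 160 in controls. GDF15 fell 2.70-fold, which is a log2 difference of -1.43 ± 0.24 (SE; edgeR adjusted p = 0.0314), and the 95% interval ran from -1.96 to -0.91. It occupies chr19:18374731-18389176 (GRCh38, plus strand), where no exon base of it overlaps another gene. Its transcript has a GC content of 62.9%, and with the GC trend removed the log2 difference was -1.32 (edgeR adjusted p = 0.00114). The difference did not rest on 1 library in size, with log2 values of -1.63 to -1.26 when each sample was left out, but the call was lost in 4 of these 6 cases. These were without control replicates 1 (edgeR adjusted p = 0.0836), 2 (0.0578) or 3 (0.0938) and without TGF-β1 replicate 2 (0.314).

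Thus 1 of the 28 tested members was lower and 0 were higher, against 0.180% of all 14463 tested genes called lower and 0.187% called higher (0.366% in either direction). DESeq2 called PLK2 and GDF15 lower and no member higher, where it called 1.0% of the 13262 genes with an adjusted p lower and 3.45% higher. Limma voom called GDF15 alone, where it called 0.201% of all genes lower. At an unadjusted p under 0.05, 3 members were higher (TP53I3, TIGAR and RRM2B), where 11.1% of all genes were, and 3 were lower (GDF15, PLK2 and BTG2), where 4.49% were. The CPM of the groups did not overlap for 8 members. Of these, 2 were higher (TP53I3 and TIGAR; 7.93% of all genes) and 6 were lower (GDF15, PLK2, BTG2, AEN, TRIAP1 and CYFIP2; 9.12%). The median log2 difference of the 28 members was 0.01, as it was over all genes tested, and the median size of the difference regardless of sign was 0.17, against 0.19 over all genes. The difference was under 0.5 on the log2 scale for 21 members, and for 20 members the 95% interval lay wholly between -1 and 1.

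**Figure D2:**
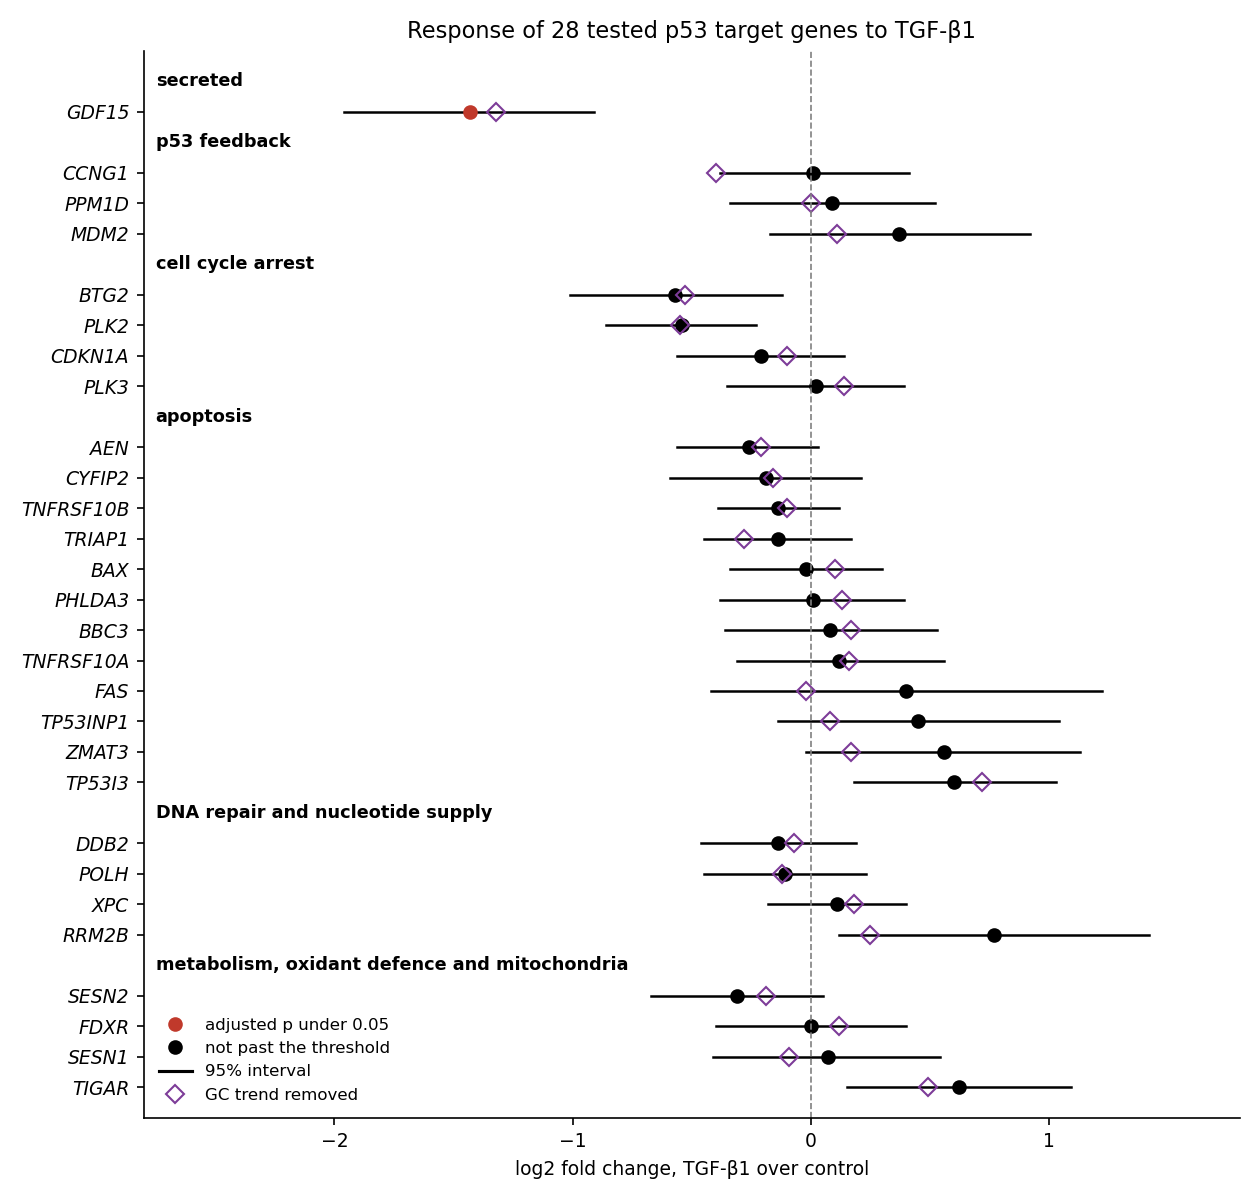
Log2 fold change of TGF-β1 over control for the 28 tested p53 target genes, grouped by role. Filled circles are edgeR estimates with their 95% intervals (red, adjusted p under 0.05) and open diamonds the estimates with the GC trend removed. GDF15 at -1.43 stands apart from the other members, which lie between -0.57 and 0.77.

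Of the 4 genes that stop the cell cycle, none was called by edgeR (2 lower at an unadjusted p under 0.05; DESeq2 called PLK2 and limma voom none). PLK2, a polo-like kinase that acts in centriole duplication, had 172, 161 and 156 CPM in TGF-β1 samples, against 231, 198 and 284 CPM in controls. All 3 TGF-β1 samples were below the controls, and the controls were more spread than the TGF-β1 samples. Its log2 difference was -0.54 ± 0.15 (SE; edgeR adjusted p = 0.136), and with the GC trend removed it passed at -0.55 (edgeR adjusted p = 0.0101). BTG2, an antiproliferative co-factor of messenger RNA decay, had 3.89, 3.97 and 4.78 CPM in TGF-β1 samples, against 5.80, 6.70 and 6.16 CPM in controls. Its groups were also apart, with a log2 difference of -0.57 ± 0.20 (SE; edgeR adjusted p = 0.215), and -0.53 with the GC trend removed (edgeR adjusted p = 0.102).

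CDKN1A had 195, 203 and 270 CPM in TGF-β1 samples, against 245, 304 and 223 CPM in controls. The groups overlapped, and the log2 difference of -0.21 ± 0.16 (SE; edgeR adjusted p = 0.562) had a 95% interval of -0.56 to 0.14. PLK3, another polo-like kinase, had 18.7 ± 2.13 CPM in TGF-β1 samples and 18.4 ± 1.61 CPM in controls (SD, n = 3 each; edgeR adjusted p = 0.965).

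**Figure D3:**
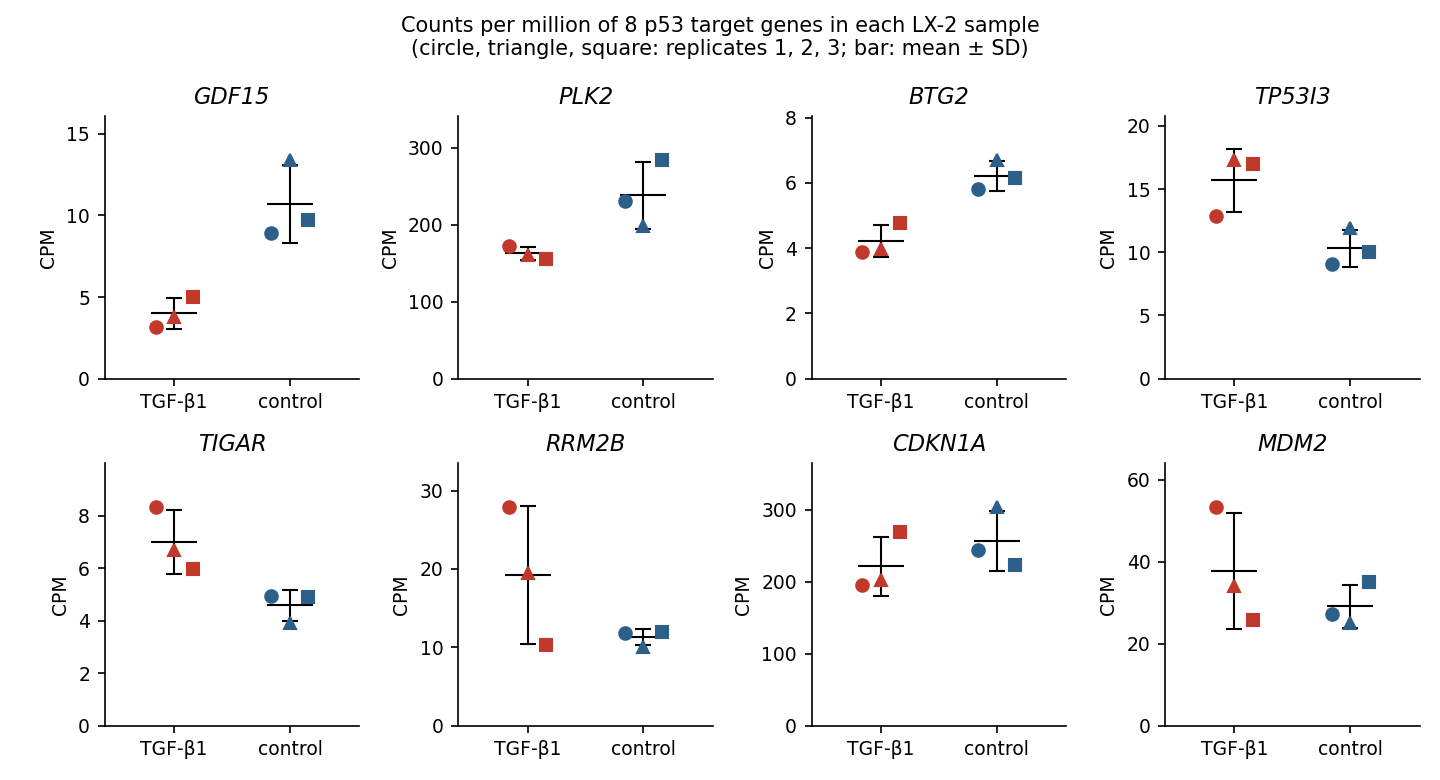
CPM of 8 p53 target genes in each sample (red, TGF-β1; blue, control; circle, triangle and square are replicates 1, 2 and 3), with the mean and SD of 3 samples as a bar. GDF15, PLK2 and BTG2 have all TGF-β1 samples below the controls, TP53I3 and TIGAR have them above, and for RRM2B, CDKN1A and MDM2 the groups overlap.

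The 3 genes that feed back on p53 were not called by edgeR, DESeq2 or limma voom, and none had an unadjusted p under 0.05. MDM2 had 53.3, 34.1 and 25.7 CPM in TGF-β1 samples, against 27.3, 25 and 35.1 CPM in controls. TGF-β1 replicate 1 was the highest and the other TGF-β1 samples lay within the range of the controls. Its log2 difference was 0.37 ± 0.25 (SE; edgeR adjusted p = 0.501), which was 0.04 without TGF-β1 replicate 1 and 0.11 with the GC trend removed. PPM1D, the phosphatase WIP1 that dephosphorylates p53 and its kinases, had 20.2 ± 4.61 CPM in TGF-β1 samples and 19.0 ± 2.31 CPM in controls (SD, n = 3 each; edgeR adjusted p = 0.856). CCNG1, cyclin G1, had 128 ± 28 CPM in TGF-β1 samples and 127 ± 23.1 CPM in controls (SD, n = 3 each; edgeR adjusted p = 0.98). With the GC trend removed CCNG1 had a log2 difference of -0.40 and narrowly missed the threshold (edgeR adjusted p = 0.0508). It was called lower when GC content was pooled over all transcripts for this removal.

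Of the 12 members that act in cell death, 7 had a positive and 5 a negative log2 difference, and none was called by edgeR, DESeq2 or limma voom (1 at an unadjusted p under 0.05 in edgeR). TP53I3, a quinone oxidoreductase known as PIG3, had 12.9, 17.3 and 17 CPM in TGF-β1 samples, against 9.05, 11.9 and 10.0 CPM in controls. Every TGF-β1 sample was above every control. Its log2 difference was 0.60 ± 0.19 (SE; edgeR adjusted p = 0.182), and with the GC trend removed it passed at 0.72 (edgeR adjusted p = 0.0138). The transcript of TP53I3 has a GC content of 58.4%, and 3.46% of its exon bases overlap FAM228B on the opposite strand.

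Classical inducers of apoptosis were not called. BAX had 158 ± 22.9 CPM in TGF-β1 samples and 160 ± 19.4 CPM in controls, with a 95% interval of the log2 difference of -0.34 to 0.30 (SD, n = 3 each; edgeR adjusted p = 0.968). BBC3, the BH3-only protein PUMA, had 22.6 ± 4.87 CPM in TGF-β1 samples and 21.3 ± 4.13 CPM in controls (edgeR adjusted p = 0.873). The death receptors TNFRSF10B (288 ± 20.3 CPM with TGF-β1, 317 ± 10.8 CPM in controls) and TNFRSF10A (5.99 ± 0.732 and 5.49 ± 0.208 CPM) had edgeR adjusted p-values of 0.612 and 0.796. These paralogs share sequence, and 16.6% of the exon bases of TNFRSF10A overlap other genes on the opposite strand, so its counts are uncertain with a library kit that does not mark strand.

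FAS, the CD95 death receptor, had 15.5, 9.61 and 5.15 CPM in TGF-β1 samples, against 11.4, 5.94 and 5.79 CPM in controls. Each group spanned a wide range, with replicate 1 the highest in both, and the 95% interval of the log2 difference, -0.42 to 1.22, was the widest among the cell death members (edgeR adjusted p = 0.637). Of its exon bases, 8.93% overlap ACTA2 on the opposite strand. AEN, an apoptosis-enhancing nuclease, had 83.9, 97.6 and 104 CPM in TGF-β1 samples, against 105, 127 and 111 CPM in controls, so that the groups barely separated (log2 difference -0.26 ± 0.14 SE, edgeR adjusted p = 0.374).

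TRIAP1, a small inhibitor of apoptosis, had 33.3, 37.7 and 37.8 CPM in TGF-β1 samples, against 39.7, 40.4 and 39.7 CPM in controls (edgeR adjusted p = 0.669). CYFIP2, an actin regulator of the WAVE complex, had 7.59, 8.84 and 10.0 CPM in TGF-β1 samples, against 10.1, 10.0 and 10.1 CPM in controls (edgeR adjusted p = 0.644). For both genes the groups were apart by less than the spread among TGF-β1 samples. PHLDA3, which restrains the kinase AKT, had 54.4 ± 9.23 CPM in TGF-β1 samples and 54.2 ± 10.0 CPM in controls (SD, n = 3 each; edgeR adjusted p = 0.991). Another gene on the same strand covers 19.1% of its exon bases. ZMAT3, an RNA-binding zinc finger protein, and TP53INP1, a p53 co-factor in cell death and autophagy, are described with the GC-poor members.

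The 4 genes of DNA repair and nucleotide supply were not called by edgeR, DESeq2 or limma voom (1, RRM2B, at an unadjusted p under 0.05 in edgeR). XPC, which recognises DNA damage in nucleotide excision repair, had 58.0 ± 2.07 CPM in TGF-β1 samples and 53.7 ± 3.90 CPM in controls (SD, n = 3 each; edgeR adjusted p = 0.718). Genes on the opposite strand cover 30.4% of its exon bases. DDB2, its partner in the recognition of ultraviolet damage and the member with the paired decamer shown above, had 43.3 ± 4.21 CPM in TGF-β1 samples and 47.5 ± 5.13 CPM in controls (edgeR adjusted p = 0.694). POLH, the translesion polymerase eta, had 40.3 ± 5.94 CPM in TGF-β1 samples and 43.5 ± 3.31 CPM in controls (edgeR adjusted p = 0.763). RRM2B, the p53-inducible subunit of ribonucleotide reductase, had 27.9, 19.5 and 10.3 CPM in TGF-β1 samples, against 11.8, 10.1 and 12.0 CPM in controls. TGF-β1 replicates 1 and 2 were above all controls, while replicate 3 lay within their range. Its log2 difference of 0.77 ± 0.29 (SE) was the highest of the members and did not pass (edgeR adjusted p = 0.245). It was 0.41 without TGF-β1 replicate 1. Without TGF-β1 replicate 3 it was 1.06 and passed (edgeR adjusted p = 0.00792), but 1671 genes were called there, against 53 with all samples. With the GC trend removed and all samples kept, it was 0.25 (edgeR adjusted p = 0.402).

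The 4 tested members of metabolism and oxidant defence were not called by edgeR, DESeq2 or limma voom either (1, TIGAR, at an unadjusted p under 0.05 in edgeR). TIGAR, which lowers fructose-2,6-bisphosphate and so slows glycolysis, had 8.32, 6.70 and 5.96 CPM in TGF-β1 samples, against 4.95, 3.91 and 4.88 CPM in controls. The groups were apart, with a log2 difference of 0.62 ± 0.22 (SE; edgeR adjusted p = 0.208), and 0.49 with the GC trend removed (edgeR adjusted p = 0.105). The exon bases of TIGAR overlap other genes for 45.6%, partly on the opposite strand, so these counts are uncertain. SESN2, a sestrin that restrains mTORC1 and is also an ATF4 target, had 33.0, 34 and 41.9 CPM in TGF-β1 samples, against 41.3, 52.7 and 40.8 CPM in controls (log2 difference -0.31 ± 0.17 SE, edgeR adjusted p = 0.391). SESN1, its paralog, had 7.83 ± 1.33 CPM in TGF-β1 samples and 7.49 ± 1.42 CPM in controls (edgeR adjusted p = 0.905). FDXR, the mitochondrial ferredoxin reductase, had 34 ± 5.90 CPM in TGF-β1 samples and 34 ± 6.15 CPM in controls (edgeR adjusted p = 0.998).

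Among the members, the sign of the difference followed GC content. Of the 9 tested members with a transcript GC content under 45%, 8 had a positive log2 difference, with a median of 0.40, against 7 of the 19 others, with a median of -0.11. All 5234 tested genes under 45% had a median of 0.29, and the 9141 others one of -0.08. Across the 28 members the Spearman correlation of GC content with the log2 difference was -0.44, and 0.05 with the trend removed. It is a description over genes that share the same 6 libraries. Over 14375 tested genes with a known GC content it was -0.53.

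RRM2B (36.4% GC), FAS (39.1%), ZMAT3 (39.5%), TP53INP1 (39.6%) and MDM2 (41.9%) were each highest in TGF-β1 replicate 1 and lowest among the TGF-β1 samples in replicate 3, the order of the median deviation of GC-poor genes given above. CCNG1 (38.2%) and TIGAR (44.2%) had the same order. Among the TGF-β1 samples, SESN1 (43.4%) was lowest in replicate 2 and TRIAP1 (43.6%) was lowest in replicate 1. ZMAT3 had 16.2, 10.8 and 8.02 CPM in TGF-β1 samples and 7.64, 6.59 and 9.63 CPM in controls, and TP53INP1 had 13.8, 8.90 and 7.43 CPM in TGF-β1 samples and 7.42, 5.42 and 9.26 CPM in controls. With the trend removed the log2 differences were 0.25 for RRM2B, -0.02 for FAS, 0.17 for ZMAT3, 0.08 for TP53INP1 and 0.11 for MDM2, against 0.77, 0.40, 0.56, 0.45 and 0.37 on scaled libraries. Without TGF-β1 replicate 1 the 9 GC-poor members had a median log2 difference of 0.04, and 5 of them a positive one.

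With the trend removed, 1 of the 28 members was higher (TP53I3) and 2 were lower (GDF15 and PLK2), against 1.78% and 1.67% of all tested genes (3.45% in either direction). Both added calls depended on the samples: TP53I3 had edgeR adjusted p = 0.103 when control replicate 1 was left out and 0.0979 when TGF-β1 replicate 2 was, and PLK2 had 0.0586 and 0.0696 without the same libraries. GDF15 passed with each sample left out (edgeR adjusted p from 0.00125 to 0.0248).

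**Figure D4:**
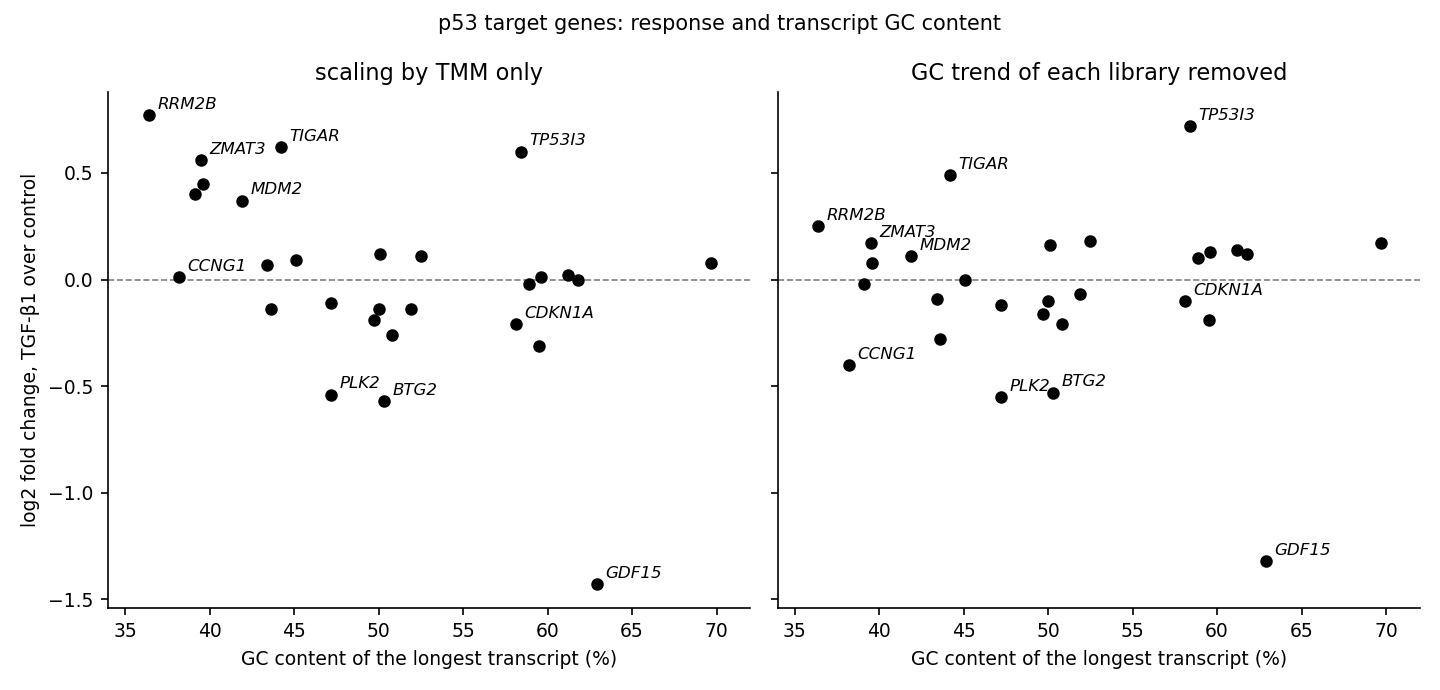
Log2 fold change of TGF-β1 over control against the GC content of the longest transcript for the 28 tested p53 target genes, on scaled libraries (left) and with the GC trend of each library removed (right). On the left the GC-poor members RRM2B, ZMAT3 and MDM2 lie above 0. On the right they lie at 0.25, 0.17 and 0.11, and GDF15, PLK2 and TP53I3 at -1.32, -0.55 and 0.72.

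Regulators of the p53 pathway were described as a further list. The counts for this and the following lists stand beside the shares over all genes given above for edgeR, and beside 4.45% called by DESeq2 and 0.380% called by limma voom in either direction. MDM4, the partner of MDM2 in restraining p53, had 18.1 ± 6.77 CPM in TGF-β1 samples and 14.8 ± 2.68 CPM in controls (SD, n = 3 each; edgeR adjusted p = 0.621). None of the 20 tested genes of the list was called by edgeR (2 higher at an unadjusted p under 0.05, where 11.1% of all genes were; limma voom called 0, and DESeq2 called ATM and ATR higher, where it called 3.45% of all genes higher), with a median log2 difference of 0.09. The smallest p-values belonged to the DNA damage kinases ATM (50.7 ± 23.9 CPM in TGF-β1 samples, 21.1 ± 4.39 CPM in controls; log2 difference 1.27, edgeR adjusted p = 0.105) and ATR (13.2 ± 6.46 and 6.89 ± 0.939 CPM; 0.94, edgeR adjusted p = 0.19), followed by TP53BP1 (0.27, edgeR adjusted p = 0.443). ATM and ATR transcripts have 39.1% and 40% GC, and with the trend removed ATM passed at 0.83 (edgeR adjusted p = 0.0143) and ATR did not at 0.56 (0.102).

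Of 21 tested further p53 targets outside the 29, 1 was called lower and none higher by edgeR (2 lower and 2 higher at an unadjusted p under 0.05; DESeq2 and limma voom each called 2). The fall was in IGFBP3, a secreted binding protein of insulin-like growth factors, with 3.58, 4.33 and 6.92 CPM in TGF-β1 samples, against 11.7, 12.6 and 12.9 CPM in controls. The groups were apart, with a log2 difference of -1.34 ± 0.24 (SE; edgeR adjusted p = 0.0418), and IGFBP3, like GDF15, encodes a secreted protein.

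Genes that p53 is known to lower through p21 and the DREAM complex, mostly of mitosis, held no edgeR call among 19 tested (DESeq2 called ECT2 and limma voom none; 4 higher and 1 lower at an unadjusted p under 0.05; median log2 difference -0.02). The smallest p-values were those of TOP2A (log2 difference 0.96, edgeR adjusted p = 0.162), ECT2 (0.92, 0.181) and MKI67 (0.68, 0.198), with transcripts of 39.1%, 38% and 48.3% GC. With the trend removed their log2 differences were 0.53, 0.45 and 0.69 and none passed (edgeR adjusted p = 0.0501, 0.086 and 0.0563).

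GDF15 and SESN2 are shared with the ATF4 stress response, of which 19 other genes were tested and none was called by edgeR, DESeq2 or limma voom (0 at an unadjusted p under 0.05 in edgeR; median log2 difference -0.03). ATF4 had 213 ± 17.1 CPM in TGF-β1 samples and 215 ± 13 CPM in controls (SD, n = 3 each; edgeR adjusted p = 0.978), and DDIT3, the stress factor CHOP, had 12.4 ± 1.13 and 13.9 ± 0.224 CPM in the same order (edgeR adjusted p = 0.663). The smallest p-values were those of SLC7A11 (log2 difference 0.61), ATF3 (-0.36) and STC2 (-0.22), with edgeR adjusted p of 0.328, 0.33 and 0.384. Among 9 tested genes of the GDF15 co-receptor RET and other ligands of the TGF-β superfamily, none was called by edgeR (2 at an unadjusted p under 0.05; DESeq2 called TGFB2 and limma voom none; median log2 difference -0.05). TGFB2 (log2 difference 0.88, edgeR adjusted p = 0.124), INHBA (0.48, 0.255) and INHBB (-0.41, 0.33) had the smallest p-values.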

How the data were processed

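Per the file headers, the deposited table holds raw read counts per gene and sample and FPKM values. The submitters' processing notes name HISAT2, HTSeq 0.13.5 and GRCh38, with no role or order; the gene annotation behind the counts is not named there. Per the labels' protocols, the library kit was NEBNext Ultra RNA, which does not mark strand. Counts of all genes entered the test of edgeR 4.0.16, R 4.3.3 (quasi-likelihood F test, robust fitting, TMM, filterByExpr), with Benjamini-Hochberg adjustment over 14463 genes and calls under 0.05. CPM are on TMM-scaled library sizes. FPKM deposited by the authors served for levels between genes. GENCODE release 29 (GRCh38) matched 26980 genes and left 850. The GC trend is a loess fit (span 0.5) per library on the GC content of the longest transcript, used as an offset. All 29 members were named; of other lists, the called genes, or else the 3 with the smallest p, plus MDM4, ATF4, DDIT3 and 4 known TGF-β1 targets; items withheld for evaluation are not reported here. Members, lists and the GC removal were chosen with earlier results of these data known. GC content pooled over all transcripts and a trend centred on its mean were tried first and replaced after their counts of calls were seen. They are kept as alternatives. On simulated counts for 14463 genes of this comparison, drawn without a GC trend, edgeR recovered 16.4%, 76.1% and 92.4% of genes changed 1.5-fold, 2-fold and 4-fold, with 8.21% false calls. Within groups, libraries differed by 5.21 to 45.7 in chi-square per degree of freedom, and none was a duplicate. Alternatives were other scaling factors and filters, the replicate block, each sample left out, DESeq2 1.42.0, limma 3.58.1 (voom, log2(FPKM + 1), log2(FPKM + 0.1)) and the GC removal, also with the block or 1 sample left out.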

Additional observations from a re-analysis of the deposited data

How the results depend on the processing

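The fall of GDF15 kept its direction under all 27 alternatives, and its call was lost without control replicate 1, 2 or 3 or TGF-β1 replicate 2. Over all genes, 53 were called, against 111 with upper quartile factors, 1240 with no filter, 590 with DESeq2, 499 with the GC trend removed and 441 with that and the replicate block. The replicate block alone gave 527. Same-numbered samples were not shown to be paired (correlations of deviations 0.176, 0.1 and -0.355). Leaving out a sample gave 4 (without TGF-β1 replicate 2) to 1671 calls (without TGF-β1 replicate 3), and 108 to 1476 with the GC trend removed. GC removals whose counts were seen before the final one was chosen gave 256 calls (each trend centred), 532 (GC content pooled over all transcripts) and 311 (pooled and centred). Members called higher numbered 0, against 1 with no filter and in every GC removal that kept all samples, and 0 to 1 when a sample was left out. Members called lower numbered 1, against 2 with no filter, DESeq2, the GC removal, that with the block, and the pooled and centred one, 3 with the pooled one, and 0 to 3 when a sample was left out.

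Of 756 alternatives over 28 members, 90 changed the sign, all in 12 members that edgeR did not call on scaled libraries. Of these, CCNG1 was called lower with GC content pooled over all transcripts. It was also called lower with the GC trend removed and control replicate 3 or TGF-β1 replicate 3 left out (lowest edgeR adjusted p = 0.0244). With the GC trend removed the log2 difference was -0.02 for FAS, 0.10 for BAX, -0.09 for SESN1, 0.12 for FDXR and -0.40 for CCNG1. With the block added it was -0.05 for FAS, 0.10 for BAX, -0.08 for SESN1, 0.12 for FDXR, -0.39 for CCNG1 and -0.01 for PPM1D. Centred, it was 0.16 for BAX, -0.02 for SESN1, 0.18 for FDXR and -0.34 for CCNG1. Pooled, it was 0.10 for BAX, -0.26 for SESN1, 0.11 for FDXR and -0.40 for CCNG1. Pooled and centred, it was 0.17 for BAX, -0.19 for SESN1, 0.0014 for DDB2, 0.18 for FDXR and -0.34 for CCNG1. Total counts only gave 0.0045 for BAX and 0.02 for FDXR, and both FPKM scales gave 0.02 for FDXR. Upper quartile factors gave -0.02 for PHLDA3, -0.01 for PLK3 and -0.02 for CCNG1, no filter gave -0.0039 for PHLDA3, and DESeq2 gave -0.01 for PHLDA3 and CCNG1. Leaving out a sample, with or without the GC removal, gave ranges of -0.06 to 0.58 for MDM2, -0.24 to 0.78 for FAS, -0.09 to 0.24 for BBC3, -0.10 to 0.16 for BAX, -0.17 to 0.17 for SESN1, -0.13 to 0.18 for FDXR, -0.10 to 0.20 for PHLDA3, -0.06 to 0.19 for PLK3, -0.02 to 0.64 for TP53INP1, -0.50 to 0.17 for CCNG1 and -0.09 to 0.24 for PPM1D. The cause was not tested. With 3 samples a group, simulated 1.5-fold changes were called in 16.4% of genes, so changes of that size or smaller can be missed here too. The simulated counts held no GC trend and gave 134 calls, against 53 in these data. Their shares of recovered genes may therefore not carry over.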
